A study of Mus musculus with 6 samples.

Results

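The genes described here are the G1 cyclins, their kinase partners and the phosphatases Cdc25a and Cdc25b, which activate cyclin-dependent kinases. They were measured in sorted mouse fetal liver cells labelled early erythroid progenitors, from embryos labelled as knockout or wild type for the transcription factor Eklf. The 10 genes were chosen by name: the D cyclins Ccnd1, Ccnd2 and Ccnd3, the E cyclins Ccne1 and Ccne2, the kinases Cdk2, Cdk4 and Cdk6, and the phosphatases Cdc25a and Cdc25b. They are 10 of the 18193 genes named on the array. Every probe set annotated to 1 of these genes alone was used, 28 of 45101 in all. The annotation listed none of their probe sets under another gene as well.

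RNA came from 3 fetal liver samples labelled EKLF -/- and 3 labelled wild type, all from embryos of 13.5 days and of the strain given as C57BL/6. Per the labels, the knockout line is the one in which Eklf (gene symbol Klf1) was targeted with clones from a strain 129 library and injected into C57BL/6 blastocysts, so it rests on a single published targeting. Cells were stained with the dye 7AAD and with antibodies to CD71 and Ter119, early erythroid progenitors were sorted, and each sample was hybridised to 1 Affymetrix array. The labels do not state the gates.

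Passage from G1 into S phase is driven by cyclin-dependent kinases. D cyclins, which are induced by growth factor signals, pair with Cdk4 and Cdk6 and begin to phosphorylate the retinoblastoma protein. This frees E2F transcription factors, whose targets include the E cyclins, and E cyclins pair with Cdk2 to start replication. Cdc25 phosphatases remove inhibitory phosphates from the kinases. In red cell precursors, G1 length and the exit from the cycle are tied to the last divisions before enucleation, and Ccnd3 is known to set the number of those divisions in the mouse.

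The targeted gene, Klf1, did not differ beyond the spread. Its 1 probe set gave 3505, 1391 and 2545 on the knockout-labelled arrays and 2508, 2706 and 4029.7 on the wild-type-labelled arrays (exact two-sided permutation p = 0.5, where 3 against 3 arrays cannot go below 0.1). No source used here says whether the probe set lies inside the deletion, so the arrays are called by their labels throughout. The median signal was 204 to 218 on the knockout-labelled arrays and 97.7 to 139.7 on the wild-type-labelled arrays, although all arrays were scaled to the same trimmed mean. Signals of the 18 hybridisation control probe sets, whose transcripts are spiked in at known amounts, were 1.60 to 4.16 times as high on the knockout-labelled arrays (median 2.39), and their part in the results was not tested. Erythroid markers rose in 9 of 10 genes tested, and the sum of their signals was 90694 to 114871 on the knockout-labelled arrays against 27539 to 30172 on the wild-type-labelled arrays.

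Lists of markers for other cell types also differed between the groups. All 10 hepatocyte markers tested rose, with summed signals of 99797 to 170047 on the knockout-labelled arrays against 7888 to 8590.2 on the wild-type-labelled arrays. Megakaryocyte markers rose in 8 of 9 genes (32848 to 43216 against 7679 to 8743). Stem and progenitor markers fell in 7 of 10 and rose in 1 (8194 to 8878 against 25238 to 25745). Lymphoid markers fell in 7 of 9 and rose in 1 (1016 to 1696 against 22421 to 33067), and myeloid and macrophage markers fell in 5 of 11 and rose in 4 (51562 to 85607 against 93431 to 112049). No marker was listed at 0. C1qa, Rag2 and Cd3e lay under the intensity filter, which uses the mean log2 signal over both groups. Their mean signals on the knockout-labelled and wild-type-labelled arrays were 772 and 10.5 for C1qa, 31.5 and 295 for Rag2, and 71.4 and 34.2 for Cd3e. The part of these cells in the results on cyclins, kinases and phosphatases was not tested. In sorted bulk samples, fewer cells of a type and less RNA per cell cannot be told apart.

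The promoters that a table of RefSeq start sites gives are shown first. Those printed, of Cdc25a, Cdc25b and the 3 kinases, were picked after seeing that Cdc25b rose and the others fell. The table held a start site for 7 of the 10 genes, with 2 for Ccnd3; promoters of Ccnd1, Ccnd2 and Ccne2 were not analysed here. Each sequence is the 250 bases before the start site on build GRCm38.p6, written 5′ to 3′ on the strand of the gene. Capitals mark matches, on either strand, to CCNCNCCC, a pattern of the CACCC boxes that Eklf and related factors bind, and to TTTNNCGC, a pattern of E2F sites, with N for any base. The match to the E2F pattern is the run TTTGGCGC in Cdc25a, GCGGGAAA in Cdk2 and TTTTACGC in Cdk6, and all other capitals match the CACCC pattern. The windows are chr9:109875329-109875578 (plus strand) for Cdc25a, chr10:128705052-128705301 (minus strand) for Cdk2, chr10:127063285-127063534 (plus strand) for Cdk4, chr5:3343643-3343892 (plus strand) for Cdk6 and chr2:131186698-131186947 (plus strand) for Cdc25b.
Cdc25a: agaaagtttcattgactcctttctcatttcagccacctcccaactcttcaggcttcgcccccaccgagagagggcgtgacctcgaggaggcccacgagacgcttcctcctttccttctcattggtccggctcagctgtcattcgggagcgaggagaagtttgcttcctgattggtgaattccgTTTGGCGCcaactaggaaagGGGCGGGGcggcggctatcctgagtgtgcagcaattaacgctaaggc
Cdk2: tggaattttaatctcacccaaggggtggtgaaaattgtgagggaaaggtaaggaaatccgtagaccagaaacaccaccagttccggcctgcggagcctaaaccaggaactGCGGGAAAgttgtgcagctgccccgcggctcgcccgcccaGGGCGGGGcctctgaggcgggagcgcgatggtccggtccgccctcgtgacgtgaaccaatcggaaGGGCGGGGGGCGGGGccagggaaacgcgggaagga
Cdk4: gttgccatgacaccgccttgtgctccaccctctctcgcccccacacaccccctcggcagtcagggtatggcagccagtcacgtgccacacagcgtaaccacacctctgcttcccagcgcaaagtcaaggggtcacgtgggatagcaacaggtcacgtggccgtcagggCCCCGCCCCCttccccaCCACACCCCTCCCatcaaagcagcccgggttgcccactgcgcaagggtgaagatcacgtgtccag
Cdk6: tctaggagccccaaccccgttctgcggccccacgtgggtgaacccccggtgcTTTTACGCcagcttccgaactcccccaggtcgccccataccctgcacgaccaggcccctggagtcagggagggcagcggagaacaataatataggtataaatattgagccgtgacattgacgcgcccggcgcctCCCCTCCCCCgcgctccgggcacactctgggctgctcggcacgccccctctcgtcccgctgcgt
Cdc25b: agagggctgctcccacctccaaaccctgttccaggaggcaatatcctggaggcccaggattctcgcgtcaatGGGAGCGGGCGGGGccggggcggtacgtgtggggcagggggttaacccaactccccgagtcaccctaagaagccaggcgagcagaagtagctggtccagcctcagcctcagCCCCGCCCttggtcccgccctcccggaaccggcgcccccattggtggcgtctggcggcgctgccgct

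The E2F pattern was present upstream of Cdc25a, Cdk2 and Cdk6, 3 of the 7 genes, against 4.28% of all 32851 promoters of this length in the table. It was absent from the windows of Cdk4 and Cdc25b, and also from those of Ccne1 and Ccnd3, whose sequences are not printed. The E2F pattern was thus missing upstream of genes that fell, rose or did not pass. Where present, the E2F pattern began 67 bases before the start site in Cdc25a, 140 bases before it in Cdk2 and 198 bases before it in Cdk6. The CACCC pattern was present upstream of 7 of the 7 genes, whether they fell, rose or did not pass, against 45.9% of all promoters. Overlapping matches run together in the capitals. A match need not hold the letters CACCC. The match in Cdc25a is GGGCGGGG, and no match in Cdk2 holds CACCC on either strand. For Cdc25a, Cdc25b and Cdk6 the start site lies inside the span that RefSeq gives to the gene, so other start sites of the gene may lie further upstream. A match describes the letters of the window, and binding was not measured here.

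Of the 10 genes, 6 fell and 1 rose on the knockout-labelled arrays. Ccnd2, Ccne2, Cdk2, Cdk4, Cdk6 and Cdc25a were 1.56- to 3.13-fold lower, and Cdc25b was 2.98-fold higher, while Ccnd1, Ccnd3 and Ccne1 did not pass the test. Each gene was represented by its brightest probe set and tested with limma among 12799 genes, with a threshold of 0.05 on the Benjamini-Hochberg adjusted p. Over all genes tested, 20.8% were called lower, 27.9% higher and 48.7% in either direction. The median log2 difference (knockout-labelled minus wild-type-labelled) was -0.75 over the 10 genes and 0.14 over all genes. Of the 10 genes, 8 lay among the 3200 brightest, where 35.3% were called lower, 15.1% higher and 50.4% in either direction, with a median of -0.25. The values of the groups did not overlap for 6 of the 10 genes, against 59.3% of all genes. The 6 decreases lie on the same arrays as the lower stem and progenitor, lymphoid, and myeloid and macrophage marker sums given above. Of the myeloid and macrophage markers on those arrays, 5 fell and 4 rose. Those arrays also had the higher erythroid, hepatocyte and megakaryocyte marker sums. The part of any of these in the decreases was not tested.

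**Figure D1:**
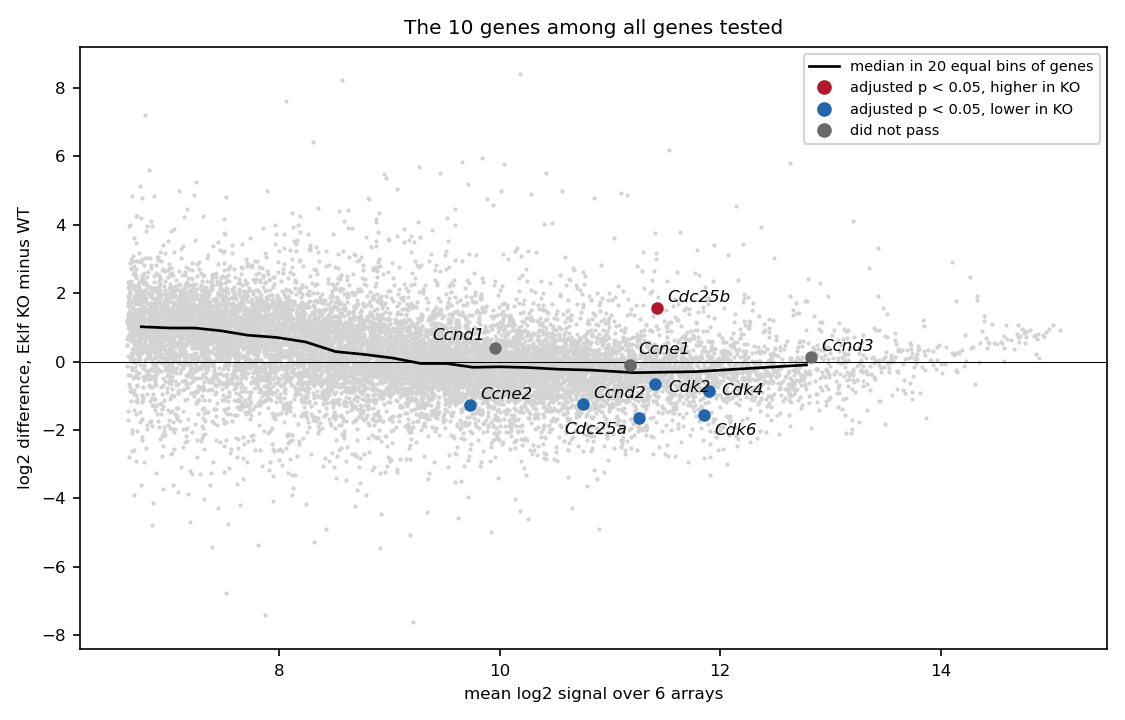
Each grey point is 1 of the 12799 genes tested, with its mean log2 signal over 6 arrays on the horizontal axis and its log2 difference (knockout-labelled minus wild-type-labelled) as the vertical axis. The black line, the median in equal bins of genes, passes below 0 for the brighter genes; the 6 genes in blue that were called lower lie below it and Cdc25b, in red, lies above it.

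At the brightest probe set of each D cyclin, Ccnd2 fell, and Ccnd1 and Ccnd3 did not pass. Ccnd2, a D cyclin that is abundant in growing blood progenitors and B cell precursors, gave 1320.0, 935 and 1159 on the knockout-labelled arrays against 2768, 3056 and 2235 on the wild-type-labelled arrays. All 3 knockout-labelled values lay below all 3 wild-type-labelled values. The means were 1138 ± 194 and 2686 ± 417 (SD, n = 3 each), a log2 change of -1.24 ± 0.19 (SE, limma adjusted p = 0.000843), or 2.36-fold lower. Ccnd2 passed in all 18 alternative fits, with differences from -2.06 to -0.74.

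Ccnd2 has 7 probe sets, and they did not all give the same result. In a fit over 27023 probe sets, in which 15.7% were called lower, 28.1% higher and 43.8% in either direction, 4 of its 6 tested probe sets fell. One of these, 1434745_at (difference -0.95, limma adjusted p = 0.0134), lost its call without knockout-labelled array 2 (0.0535). The steepest decrease was that of 1448229_s_at, with 422, 256 and 359 on the knockout-labelled arrays against 1226, 1434 and 1118 on the wild-type-labelled arrays (log2 difference -1.89, limma adjusted p = 0.000415). The probe set 1455956_x_at gave 555, 804 and 744 against 773, 799.7 and 537, which overlap, with a difference of 0.00066. The suffix _x marks probe sets in which some probes also match other transcripts. The brightest probe sets of Cdk4 (1422441_x_at) and Ccne1 (1441910_x_at) carry this suffix too. A dimmer Ccnd2 probe set, 1416124_at, gave 207, 118 and 160.2 against 83.8, 84.6 and 121, a difference of 0.73 ± 0.39 (SE, limma adjusted p = 0.155). The seventh, 1416123_at, lay under the intensity filter with means of 73.6 and 96.8.

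Ccnd3, the D cyclin most tied to the divisions of erythroblasts, did not pass at its brightest probe set. Its signals of 7939.8, 6081 and 9022 on the knockout-labelled arrays overlapped those of 5769.7, 6428 and 9086 on the wild-type-labelled arrays. The log2 difference was 0.12 ± 0.21 (SE, limma adjusted p = 0.653). Over 18 alternatives it ran from -0.69 to 0.35 and passed in 0, with limma adjusted p from 0.0730 to 0.996. Another Ccnd3 probe set, 1444323_at, rose, with 632, 1101 and 1509 on the knockout-labelled arrays against 464, 436 and 357 on the wild-type-labelled arrays (log2 difference 1.29, limma adjusted p = 0.0102). This call was lost after median centring (difference 0.47, limma adjusted p = 0.232), while with quantile normalization and cyclic loess it held (limma adjusted p 0.0224 and 0.0151). The third Ccnd3 probe set, 1438805_at, was dim, with 81.2, 180.5 and 139.6 on the knockout-labelled arrays against 146, 171.8 and 178.2 on the wild-type-labelled arrays. These overlap, and the lowest lies under the intensity filter of 98.6. As deposited, this probe set gave -0.38 ± 0.39 (SE, limma adjusted p = 0.449). It was called lower with quantile normalization (-1.16, limma adjusted p = 0.0456), cyclic loess (-1.21, 0.0393) and median centring (-1.19, 0.0272), so Ccnd3 had probe sets called in both directions under the first 2 of these.

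Ccnd1, the D cyclin best known from epithelial and mesenchymal cells, was uneven on the knockout-labelled arrays. It gave 1740.3, 747 and 1129.7 there, against 958, 970.3 and 710.3 on the wild-type-labelled arrays. Knockout-labelled array 1 lay above every wild-type-labelled array, and knockout-labelled array 2 lay below 2 of them. The log2 difference was 0.38 ± 0.29 (SE, limma adjusted p = 0.296), and its 2 other probe sets gave 0.075 and 0.25 without passing. The brightest gave 0.44 with quantile normalization, 0.49 with cyclic loess and -0.43 with median centring, which lowers all genes alike, and passed in none of the 18 alternatives.

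Of the E cyclins, Ccne2 fell and Ccne1 did not pass. Both encode activators of Cdk2 that peak at the start of S phase. Ccne2 gave 794, 459.7 and 455 on the knockout-labelled arrays against 2043, 1686 and 668 on the wild-type-labelled arrays. The groups overlapped, because wild-type-labelled array 3 lay below knockout-labelled array 1. The means were 569.6 ± 194 and 1466 ± 713 (SD, n = 3 each), a log2 change of -1.26 ± 0.40 (SE, limma adjusted p = 0.0269). The call of Ccne2 was lost in 5 of 18 alternatives, 4 of them fits that left out knockout-labelled array 2 or 3 or wild-type-labelled array 1 or 2 (limma adjusted p 0.0832 to 0.0907) and 1 without a variance trend (0.0505), while the difference stayed between -2.08 and -0.95.

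Ccne1 has 2 probe sets, and neither passed as deposited. The brighter, 1441910_x_at, gave 3582, 1403 and 2258 on the knockout-labelled arrays against 2075, 2155 and 3059 on the wild-type-labelled arrays. Its groups overlapped throughout, with a log2 change of -0.09 ± 0.31 (SE, limma adjusted p = 0.826). The other, 1416492_at, gave 2112, 983 and 1624 against 918, 856 and 1138, where only knockout-labelled array 2 lay within the wild-type-labelled range. Its difference was 0.64 ± 0.27 (SE, limma adjusted p = 0.0861), and it passed with cyclic loess (0.0468), with array weights (0.024) and without knockout-labelled array 2 (0.0179). The differences of both probe sets were above 0 with quantile normalization (0.16 and 0.76) and cyclic loess (0.15 and 0.80) and below 0 with median centring (-0.91 and -0.18), so no direction is given for Ccne1.

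All 3 kinases fell. Cdk6, which pairs with D cyclins and is prominent in blood progenitors, had the largest log2 difference of the 3. It gave 2107, 1929.7 and 2463 on the knockout-labelled arrays against 7171, 6934 and 5071 on the wild-type-labelled arrays. No knockout-labelled value reached even 1 of the wild-type-labelled values. The means were 2167 ± 272 and 6392 ± 1149.9 (SD, n = 3 each), a log2 change of -1.55 ± 0.18 (SE, limma adjusted p = 0.000186), or 2.93-fold lower.

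As deposited, the probe sets of Cdk6 were called in both directions, and those of no other gene of the 10 were. A second bright probe set, 1455287_at, listed under the same source sequence as the first, gave 2018, 1856 and 1846 on the knockout-labelled arrays against 4495, 4943 and 3797 on the wild-type-labelled arrays (log2 difference -1.20, limma adjusted p = 0.000538). The third, 1460291_at, listed under another source sequence, gave 444, 361 and 485 against 161, 158 and 187 (difference 1.34, limma adjusted p = 0.00393). Its groups did not overlap either, and its call was lost with quantile normalization (0.0532), cyclic loess (0.0599) and median centring (0.183). With the mean of the 3 probe sets Cdk6 still passed, at a smaller difference of -0.47 (limma adjusted p = 0.0288). Which part of the transcript each probe set covers is not given in the sources used here.

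Cdk4, the other partner of D cyclins, gave 3671, 2316 and 2673 on the knockout-labelled arrays against 5125, 4696 and 5675 on the wild-type-labelled arrays. The groups did not overlap, and the log2 difference was -0.86 ± 0.19 (SE, limma adjusted p = 0.00556). Its 3 probe sets moved together, with differences of -0.86, -0.73 and -0.87, and each was called lower. One of them, 1422439_a_at, lost its call with quantile normalization (limma adjusted p = 0.0581), with cyclic loess (0.0598) and without knockout-labelled array 2 (0.0535).

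Cdk2, the partner of E cyclins, had the smallest called decrease of the 10 genes and the smallest standard error. Its signals were 2327, 2086 and 2141 on the knockout-labelled arrays against 3596, 3057 and 3609.5 on the wild-type-labelled arrays. The means were 2185 ± 126 and 3421 ± 315 (SD, n = 3 each), a log2 change of -0.64 ± 0.15 (SE, limma adjusted p = 0.00648), or 1.56-fold lower. A second Cdk2 probe set had signals of 1.02 to 29.9 on the knockout-labelled arrays and 0.666 to 1.37 on the wild-type-labelled arrays, under the intensity filter of 98.6. Averaging this dim probe set with the bright one turned the Cdk2 difference to 0.60 (limma adjusted p = 0.415), and Cdk2 passed as a decrease in the other 17 of 18 alternatives.

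**Figure D2:**
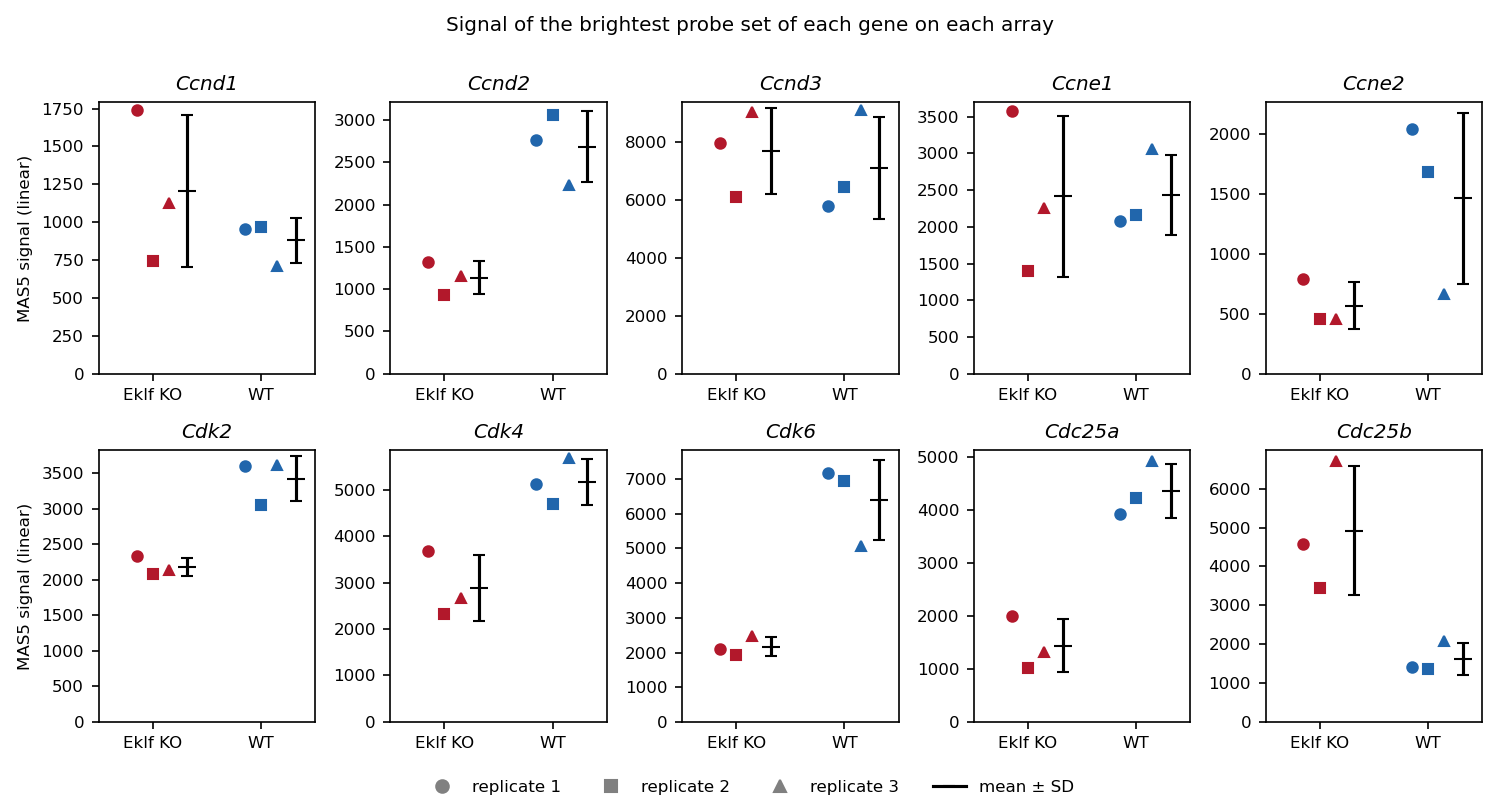
Linear MAS5 signals of the brightest probe set of each gene, with 1 panel per gene, the knockout-labelled arrays on the left in red and the wild-type-labelled arrays on the right in blue. Marker shapes give the replicate number and black bars give the mean ± SD of 3 arrays; the groups are apart for Ccnd2, Cdk2, Cdk4, Cdk6, Cdc25a and Cdc25b and overlap for Ccnd1, Ccnd3, Ccne1 and Ccne2.

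The phosphatases Cdc25a and Cdc25b went in opposite directions. Cdc25a, which activates Cdk2 at the G1 to S transition, gave 1996, 1014 and 1325 on the knockout-labelled arrays against 3924.5, 4239 and 4935 on the wild-type-labelled arrays. The means were 1445 ± 502 and 4366 ± 517 (SD, n = 3 each), a log2 change of -1.65 ± 0.24 (SE, limma adjusted p = 0.000626), or 3.13-fold lower. This was the largest decrease of the 10 genes, and the groups were apart. A second probe set, 1417132_at, gave 1916, 856 and 1008 against 2369.8, 2456 and 3131, also apart (difference -1.15, limma adjusted p = 0.0119), with its call lost without knockout-labelled array 3 (0.0505). The third Cdc25a probe set lay under the intensity filter, with means of 143 and 76.5. Averaged with it, Cdc25a did not pass (difference -0.69, limma adjusted p = 0.0687), against 17 of 18 alternatives in which it passed.

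Cdc25b, which acts mainly at entry into mitosis, gave 4589, 3448 and 6714 on the knockout-labelled arrays against 1424, 1356 and 2089 on the wild-type-labelled arrays. The lowest knockout-labelled value lay above the highest wild-type-labelled value. The means were 4917 ± 1657 and 1623 ± 405 (SD, n = 3 each), a log2 change of 1.57 ± 0.26 (SE, limma adjusted p = 0.00128) from its 1 probe set. The 2.98-fold increase of Cdc25b lies within the range of the hybridisation controls, 1.60- to 4.16-fold. So do the increases of the probe sets Cdk6 1460291_at (2.54-fold) and Ccnd3 1444323_at (2.44-fold). The part of the controls' difference in these or in the decreases was not tested. After median centring Cdc25b did not pass (difference 0.76, limma adjusted p = 0.0648), and its adjusted p lay between 7.15e-05 and 0.0648 in the 18 alternatives.

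**Figure D3:**
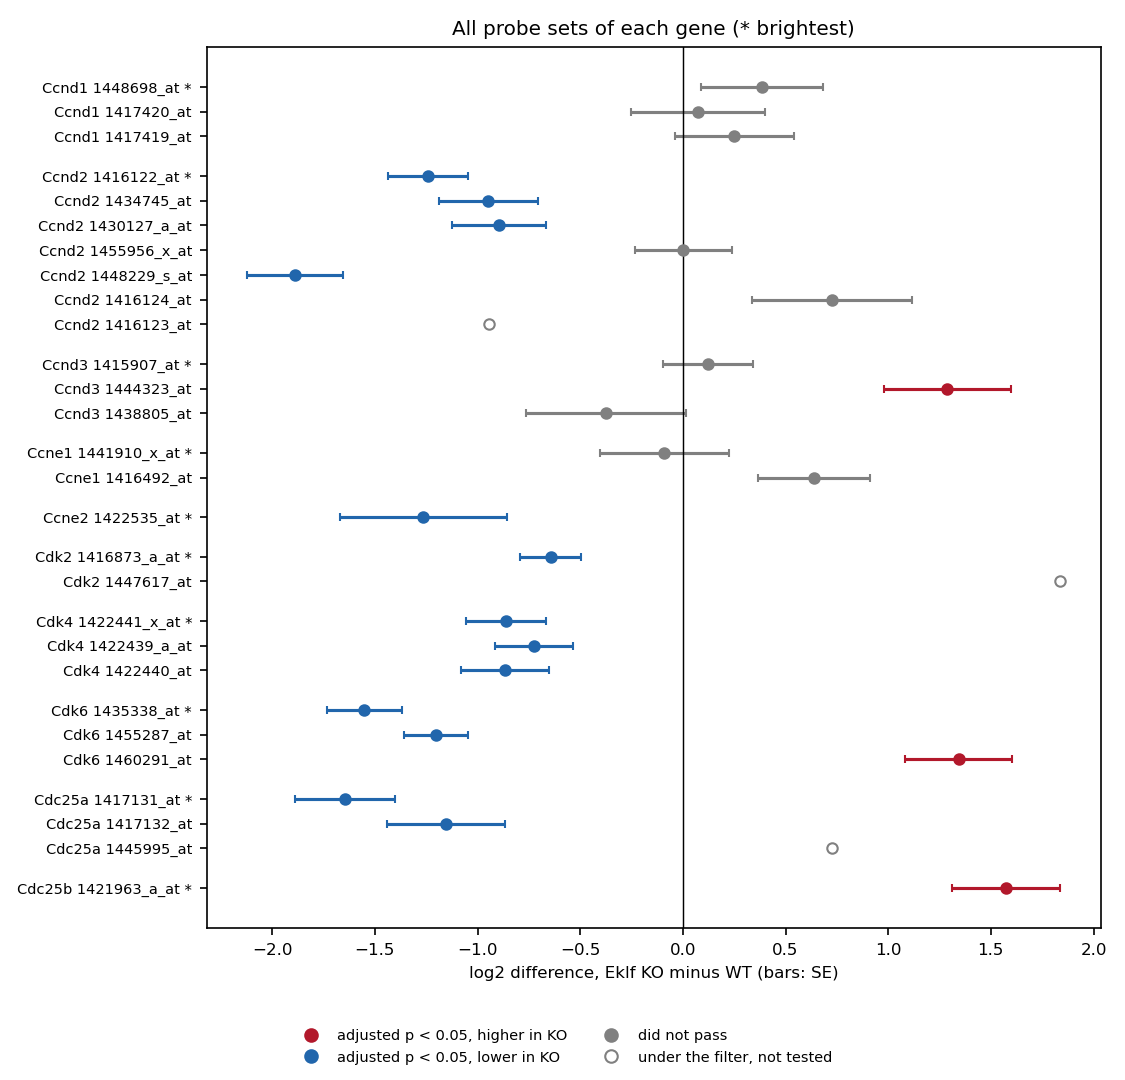
Log2 differences, knockout-labelled minus wild-type-labelled, of all 28 probe sets, with SE bars for the 25 tested and open points for the 3 under the intensity filter. Of the tested probe sets 13 were called lower (blue), 3 higher (red) and 9 did not pass (grey); the brightest of each gene is starred, and Cdk6 has called probe sets on both sides of 0.

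The spread among knockout-labelled arrays was shared by many of the genes. Knockout-labelled array 2 had the lowest value of its group for 9 of the 10 genes and array 1 the highest for 7. Among wild-type-labelled arrays, array 3 had the highest value for 6 genes (Ccnd3, Ccne1, Cdk2, Cdk4, Cdc25a and Cdc25b) and the lowest for 4 (Ccnd1, Ccnd2, Ccne2 and Cdk6). Leaving out each array in turn left 6 or 7 of the 10 genes called, beside 4875 to 6217 of all 12799 genes.

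Since scaling can move a difference, the 10 genes were also read under 3 other scalings. The median difference over all genes was -0.024 with quantile normalization, 0.0038 with cyclic loess and -0.68 with median centring, against 0.14 as deposited. Ccnd2, Ccne2, Cdk2, Cdk4, Cdk6 and Cdc25a were called lower under each of these scalings. The smallest of their decreases were those of Cdk2, which was -0.40 with quantile normalization and -0.41 with cyclic loess. Among the 3200 brightest genes, 26.5% were called lower with quantile normalization, 24.5% with cyclic loess and 71.8% with median centring.

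**Figure D4:**
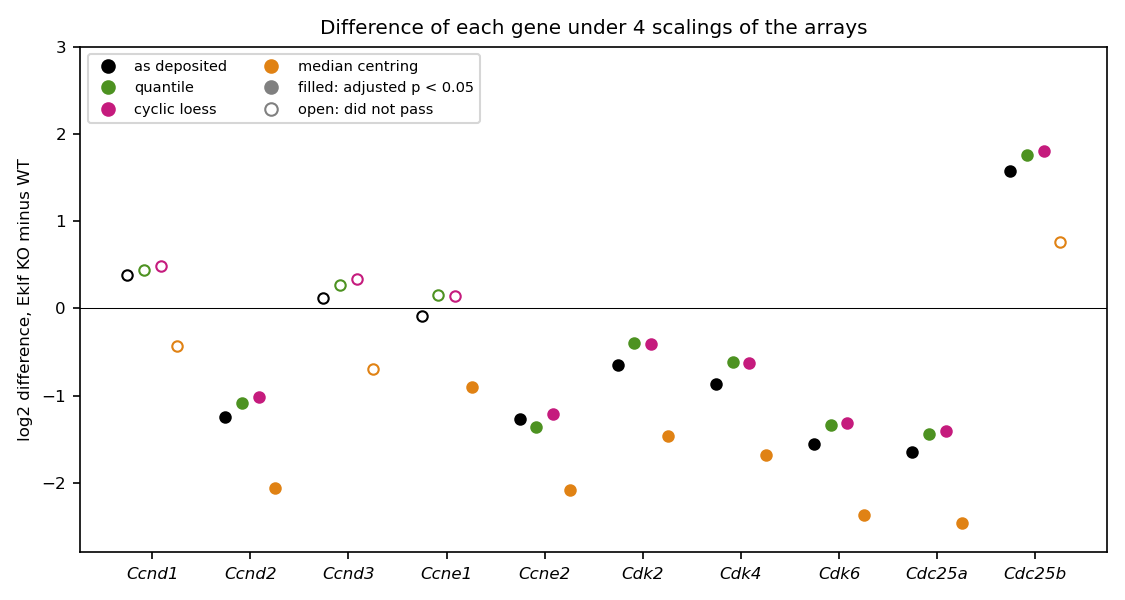
Log2 difference, knockout-labelled minus wild-type-labelled, of each of the 10 genes as deposited and after quantile normalization, cyclic loess and median centring; filled points passed an adjusted p of 0.05 and open points did not. The 6 genes called lower are filled and below 0 under all 4 scalings, and Cdc25b is open after median centring.

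Differences between genes of 1 family within an array do not change when that array is multiplied by a constant, as in median centring. For each of the 8 pairs within the 4 families, the log2 signal of the second gene was subtracted from that of the first on each array. The size of such a value has no meaning, since probes differ in brightness, and only its change between groups was read. With 3 against 3 arrays an exact two-sided permutation test cannot give a p below 0.1, so no pair could pass. In 4 of the 8 pairs the groups did not overlap, each with an exact permutation p of 0.1 (0.2 adjusted over the 8 pairs). The groups did not overlap for 59.3% of single genes, and a share over other pairs of genes is not given here. These 4 pairs were also apart after quantile normalization and cyclic loess.

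The widest gap was that of Cdc25a minus Cdc25b, with -1.20, -1.77 and -2.34 on the knockout-labelled arrays against 1.46, 1.64 and 1.24 on the wild-type-labelled arrays, a change of -3.22. Between the group means, the signal of Cdc25a relative to that of Cdc25b was thus 9.31-fold lower on the knockout-labelled arrays. Each of the 3 knockout-labelled arrays lay below every wild-type-labelled array. Since Cdc25a and Cdc25b were each apart alone, in opposite directions, this had to be so and repeats the single-gene values. Among the D cyclins, Ccnd1 minus Ccnd2 gave 0.40, -0.32 and -0.04 on the knockout-labelled arrays against -1.53, -1.66 and -1.65 on the wild-type-labelled arrays, a change of 1.63. Ccnd2 minus Ccnd3 gave -2.59, -2.70 and -2.96 against -1.06, -1.07 and -2.02, a change of -1.36. At these brightest probe sets Ccnd2 lay lower relative to both other D cyclins on the knockout-labelled arrays, though no pair could pass. The Ccnd2 probe set 1455956_x_at, with a difference of 0.00066, was not used in these values. Among the kinases, Cdk2 minus Cdk6 gave 0.14, 0.11 and -0.20 on the knockout-labelled arrays. On the wild-type-labelled arrays it gave -0.996, -1.18 and -0.49, a change of 0.91 between the groups. The Cdk6 probe set that rose, 1460291_at, was not used in these values.

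The 4 other pairs overlapped between groups. Cdk4 minus Cdk6 had a group difference of 0.69 (exact permutation p = 0.2), and it was -0.35 when all probe sets of each gene were averaged, which brings in the Cdk6 probe set that rose. Ccne1 minus Ccne2 had a group difference of 1.17 (exact permutation p = 0.3), and of 1.52 with groups apart after quantile normalization (0.1). Cdk2 minus Cdk4 had a group difference of 0.22 (exact permutation p = 0.4) and Ccnd1 minus Ccnd3 one of 0.26 (0.6).

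**Figure D5:**
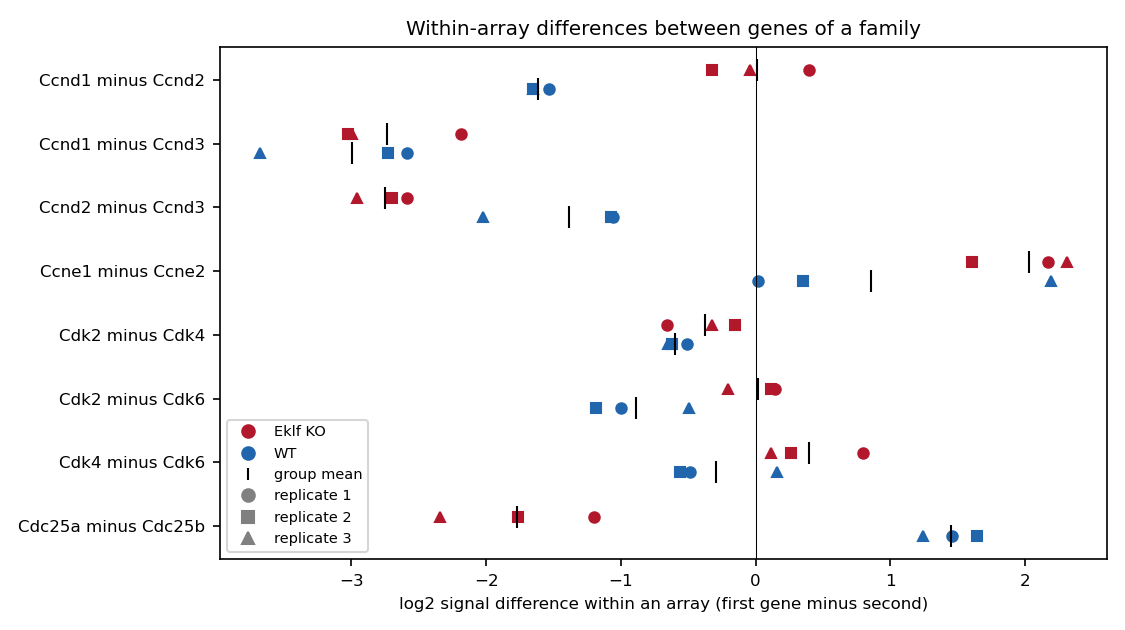
Within-array log2 differences between genes of a family, with knockout-labelled arrays in red above wild-type-labelled arrays in blue, marker shapes for replicate numbers and black ticks for group means. The groups are apart for Ccnd1 minus Ccnd2, Ccnd2 minus Ccnd3, Cdk2 minus Cdk6 and Cdc25a minus Cdc25b.

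Genes around these cyclins and kinases were read as lists, with counts and medians only, to be set beside 20.8% lower and 27.9% higher over all genes and 35.3% lower and 15.1% higher among the 3200 brightest. Of 14 tested genes that assemble, activate or degrade cyclins, 4 fell and 2 rose, with a median of -0.13 beside 0.14 over all genes. Cks1b, a small subunit of cyclin-dependent kinases that helps degrade p27, fell by 0.83 (limma adjusted p = 0.00178). Pim1, a kinase induced by cytokine signals, rose by 1.48 (0.00153) but did not pass after median centring (0.0747). Of 10 tested cyclins, kinases and regulators of S, G2 and M phase, 3 fell and 2 rose (median -0.20). Wee1, the kinase that places the inhibitory phosphate which Cdc25 removes, fell by 1.22 (limma adjusted p = 0.00181) and Plk1, a mitotic kinase, fell by 0.80 (0.01).

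Inhibitors and pocket proteins were split, with 4 of 9 lower, 2 higher and a median of 0.38. Cdkn1c, the inhibitor p57, rose by 2.93 (limma adjusted p = 9.24e-05) and Cdkn2c, the inhibitor p18 of Cdk4 and Cdk6, fell by 1.35 (0.000856). Of the 10 E2F and DP factors 6 fell and 2 rose (median -0.90), among them Tfdp1, which fell by 1.10 (0.00191), and Tfdp2, which rose by 1.26 (0.00093) but did not pass after median centring (0.143). Of 20 tested S phase genes known as E2F targets, 6 fell, 1 rose and 13 did not pass (median -0.35). Rrm2, a subunit of ribonucleotide reductase, fell by 1.11 (0.00749), and Orc1, of the origin recognition complex, rose by 1.13 (0.00314) but did not pass after median centring (0.295). The counts of these lists moved with the scaling: of the S phase genes 4 were called lower with quantile normalization, 3 with cyclic loess and 18 with median centring.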

How the data were processed

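Gene expression was measured on 6 single-colour Affymetrix arrays, 3 per genotype label. The deposited values are linear intensity values, 1 per probe set, made with MAS5 (per the submitters' processing notes, which also list Affymetrix Expression Console; no version is stated). This method subtracts background and scales each array to 1 trimmed mean, so medians stay free to differ; detection calls were not used here.

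Of 45101 probe sets, 34958 were annotated to 1 gene, 932 to several and 9211 were not listed; of these, 34754 matched RefSeq by Entrez identifier and took its symbol. Signals were floored at 1 and log2 was taken. Genes under the 40th percentile of mean log2 signal (6.62, a signal of 98.6) were left out. Differences were tested with limma 3.58.1 in R 4.3.3 (eBayes with a variance trend), two-sided, with Benjamini-Hochberg adjustment over 12799 genes, or over 27023 probe sets for single probe sets; SE values are limma's. Pairs of genes were tested with scipy 1.17.1 by exact permutation. The limma fit was tried on simulated data, and the permutation test was checked only on fixed values with known answers. The number of arrays limits the precision.

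The 10 genes and the lists were chosen with earlier results of these data known. The rule for named genes took the 10 genes, Klf1 and at most 2 called genes of smallest p per list; C1qa, Rag2 and Cd3e were named outside it. Some genes of the lists are not reported here. Replicate numbers were not used to pair the arrays in the main fit. Alternatives were other normalizations, offsets, filters, variance models, the mean of probe sets, a replicate block and each array left out. Promoter sequences are RefSeq's, build GRCm38.p6.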

Additional observations from a re-analysis of the deposited data

How the results depend on the processing

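As deposited, limma called 6232 genes, of which 3571 rose and 2661 fell. Calls of genes higher numbered 2224 with quantile normalization, 2292 with cyclic loess, 1085 with median centring and 2133 with the filter at the 60th percentile, and calls lower numbered 6133 with median centring. Calls higher made up 57.3% of all calls as deposited, 44.8% with quantile normalization, 46.3% with cyclic loess and 15% with median centring. Of the 10 genes described, 0 were called higher with median centring, where Ccne1 passed as lower (-0.91, adjusted p = 0.0446), and 6 or 7 were called with each array left out (5 or 6 lower, 1 higher). Without 1 array, 4875 to 6217 genes were called, 2795 to 3472 higher and 2080 to 2745 lower. The cause of these shifts was not tested.

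Some log2 differences changed sign. With quantile normalization, Ccne1 was 0.16, Ccnd1 1417419_at -0.15, Ccnd2 1455956_x_at -0.070 and Ccnd2 1416124_at -0.11. With cyclic loess they were 0.15, -0.094, -0.037 and -0.15 in the same order. With median centring, Ccnd1 was -0.43, Ccnd3 -0.69, Ccnd1 1417420_at -0.74, Ccnd1 1417419_at -0.56, Ccnd2 1455956_x_at -0.81, Ccnd2 1416124_at -0.089 and Ccne1 1416492_at -0.18. With array weights, Ccnd1 1417420_at was -0.15 and Ccnd2 1455956_x_at -0.091. With the mean of all probe sets, which weights dim ones equally, Ccne1 was 0.27, Cdk2 0.60, Ccnd1 minus Ccnd3 -0.11 and Cdk4 minus Cdk6 -0.35, and 5 genes were called, 4 lower and 1 higher. Quantile normalization and cyclic loess of the 8 pairs, chosen after seeing the data, left the sign of every pair as it was. With each array left out, Ccnd3 ran from -0.012 to 0.32, Ccne1 from -0.43 to 0.25, Ccnd1 1417420_at from -0.30 to 0.41, Ccnd2 1455956_x_at from -0.18 to 0.16 and Ccnd1 minus Ccnd3 from -0.078 to 0.46.

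The arrays' replicate numbers were not used as pairs in the main fit. Deviations from the group means of same-numbered arrays correlated at 0.081, 0.036 and 0.090 across genes. Each knockout-labelled array correlated best with its own number, so this check does not settle whether the arrays are paired. With the replicate number as a block, 6277 genes were called and 7 of the 10 genes (6 lower, 1 higher), with no call among the 10 changed. The limma adjusted p became smaller for Ccne2 (0.0269 to 0.00368), Cdk4, Cdc25a and Cdc25b. It became larger for Ccnd2, Cdk2 (0.00648 to 0.00953) and Cdk6. Nothing in the labels says that the samples are separate litters, so p-values measure the spread between these 3 and 3 arrays. Signals near background, such as those of the 3 probe sets under the filter, give no direction.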
